A study of Mus musculus with 2 samples.

Results

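Kruppel-like factors (Klf genes) were examined in 46C, a line of mouse embryonic stem cells with a GFP reporter at the Sox1 locus. The 7 genes Klf2, Klf3, Klf4, Klf5, Klf9, Klf10 and Klf13 were taken by symbol from a deposited table of 14398 genes, and each matched 1 row. The cells overexpressing ID2 gave 1 library, and cells transfected with the empty vector as control gave 1 library. Both cultures were 46C cells at passages 21 to 24, kept on gelatin with serum and LIF (leukemia inhibitory factor, which sustains self-renewal). The sources used here do not say whether the cultures were clones or pools. The comparison asks how Klf transcripts stood in embryonic stem cells that overexpress ID2, a helix-loop-helix protein that binds E proteins and keeps them off DNA. With 1 library per group there is no replicate, no error and no test, so each difference is a difference between 2 cultures. Values are the authors' normalized signal, and log2 ratios are those of ID2 over control after adding 1 to both values.

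Kruppel-like factors are transcription factors with zinc fingers at the C-terminal end, which bind GC-rich and CACCC-type sequences. Their N-terminal parts differ, and some members recruit acetyltransferases while others recruit the corepressors CtBP or Sin3a. In mouse embryonic stem cells Klf2, Klf4 and Klf5 have overlapping roles in self-renewal and bind many of the same pluripotency genes.

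Of the 7 genes, 5 were higher in the ID2 library and 2 were lower. Of the 12679 genes with a mean of at least 50, 47.2% were higher and 51.5% lower. The median log2 ratio was 0.50 for the 7 genes, 0.19 for the 14 Klf genes with such a mean, and −0.0023 for the 12679. The 7 genes, which are also among the 14, were chosen with earlier results of these data known. Their count and median, and the median of the 14, are no independent evidence. Among the 7, Klf13, Klf5, Klf9, Klf4 and Klf3 were the higher ones, and Klf10 and Klf2 the lower ones. Klf13 alone was at least 2-fold apart, beside 2.53% of those 12679 genes past this line on the higher side and 1.86% on the lower side. Among the 4722 genes with means within the range of the 7 members, from 1143 to 12410, these shares were 0.402% and 0.148%. At 1.5-fold, Klf13, Klf5 and Klf9 were higher and 0 members lower, beside 8.00% higher and 6.59% lower among the 12679 genes. In the range of the members' means, these shares were 2.84% and 1.61%. The authors' p-values, given next and below, come from 1 library per group. They therefore hold no measure of variation between cultures. By the authors' deposited table, 4 of the 7 members had an unadjusted p under 0.05, beside 3.85% of all genes in either direction. By the authors' deposited table, 0 of the 7 had an adjusted p under 0.05, beside 0.181% of all genes.

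**Figure D1:**
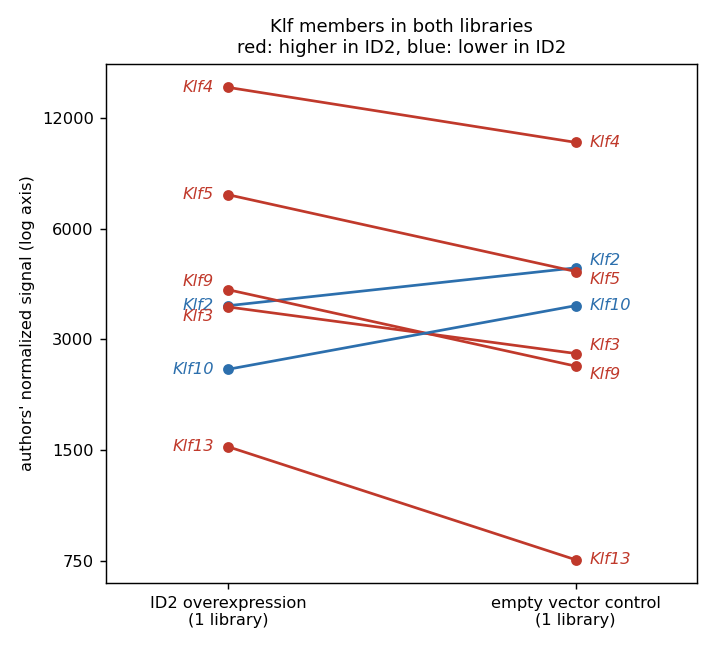
Authors' normalized signal (log axis) of the 7 Klf genes, with the ID2 library on the left and the control library on the right; each line joins the values of 1 gene. Klf4 was at 14526 and 10293 and Klf13 at 1531 and 754 in the ID2 and control libraries, and the blue lines of Klf2 and Klf10 run the other way.

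Of the stem cell factors, Klf4, a target of LIF and STAT3 signaling, had a normalized signal of 14526 in the ID2 library and 10293 in the control library. Its log2 ratio was 0.50 (1.41-fold higher). To read this against the spread at the same level, each member was set beside the 500 named genes nearest to it in mean. For Klf4, 23 of these genes had a higher ratio and 477 a lower one. Klf5, a zinc finger activator also used in proliferating epithelia, had a signal of 7418 in the ID2 library and 4586 in the control library, a log2 ratio of 0.69 (1.62-fold higher). Only 6 of the 500 genes nearest to Klf5 in mean had a higher ratio. Klf2, whose protein is marked for degradation by ERK signaling in stem cells, went the other way, with 3702 in the ID2 library and 4693 in the control library. Its log2 ratio was −0.34 (1.27-fold lower), and 24 of its 500 neighbours in level had a lower one. The central 90% of ratios lay between −0.42 and 0.48 for the neighbours of Klf4, −0.37 and 0.43 for those of Klf5, and −0.33 and 0.41 for those of Klf2. Klf5 stood outside its range by 0.26 on the log2 scale, Klf4 by 0.015 and Klf2 by 0.0086. In the authors' deposited table the unadjusted p was 0.0107 for Klf5 (adjusted p 0.776), 0.0572 for Klf4 and 0.22 for Klf2 (adjusted p 1 for both).

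Klf3, a repressor that recruits CtBP, had a signal of 3674 in the ID2 library and 2745 in the control library. The log2 ratio of 0.42 (1.34-fold higher) lay within the central 90% of its neighbours in level, −0.43 to 0.43, with 33 of 500 genes above it. An exon of the noncoding gene Gm20033 overlaps Klf3 on the opposite strand in GENCODE M21. The library kit does not mark strand, so reads of this overlap cannot be assigned to 1 gene. Gm20033 is not among the deposited genes, and how the authors counted such reads is unknown. In the authors' deposited table Klf3 had an unadjusted p of 0.143 and an adjusted p of 1.

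Klf9, Klf10 and Klf13 belong to the branch of the family that binds the corepressor Sin3a, and they did not share a direction. Klf9, which responds to glucocorticoid and thyroid hormone in other tissues, had a signal of 4093 in the ID2 library and 2536 in the control library. Its log2 ratio of 0.69 (1.61-fold higher) was exceeded by 4 of its 500 neighbours in level, whose central 90% ran from −0.39 to 0.43. Klf13, known in human lymphocytes as an activator of the chemokine gene Ccl5, had the lowest signal of the 7, with 1531 in the ID2 library and 754 in the control library. Its log2 ratio of 1.02 (2.03-fold higher) was the largest of the 7 and just past the 2-fold line, and 4 of its 500 neighbours exceeded it. The central 90% of those neighbours ran from −0.46 to 0.56. Klf10, first known as an early gene induced by transforming growth factor beta (TGF-beta), was lower, with 2486 in the ID2 library and 3704 in the control library. Its log2 ratio of −0.58 (1.49-fold lower) lay below the central 90% of its neighbours, −0.39 to 0.44, and 7 of 500 had a lower one. In the authors' deposited table the unadjusted p was 0.00302 for Klf13, 0.0159 for Klf9 and 0.0461 for Klf10, with adjusted p of 0.399, 0.891 and 1 in that order of genes.

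**Figure D2:**
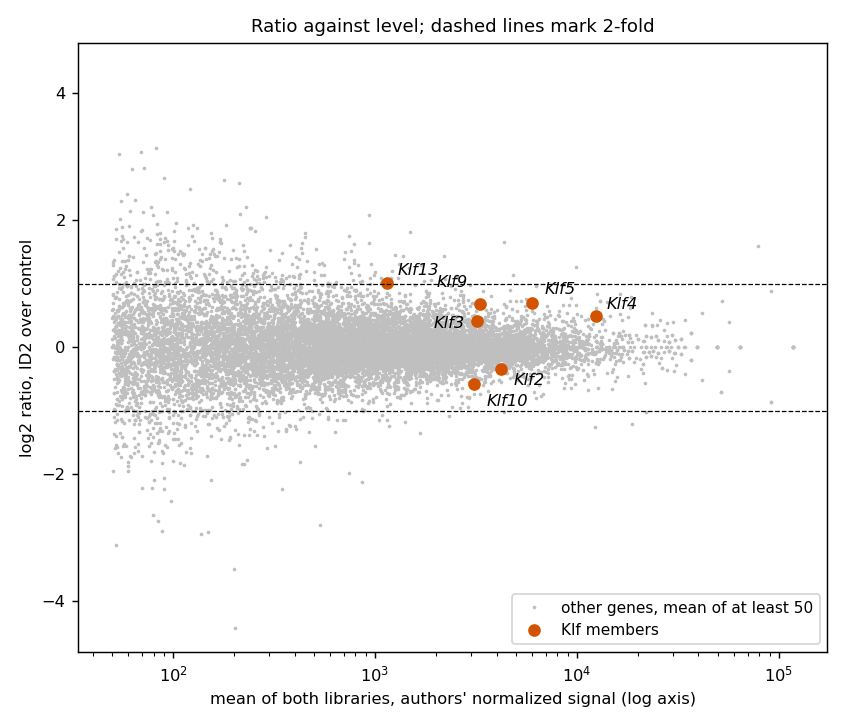
Log2 ratio of ID2 over control against the mean of both libraries (log axis) for all genes with a mean of at least 50 except Id2; orange points are the 7 Klf genes and dashed lines mark 2-fold. Ratios spread less at higher means, and Klf13 (1.02) sits on the upper dashed line while Klf10 (−0.58) and Klf2 (−0.34) sit below 0.

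Klf13 also had the largest share of its transcript in a single exon among the 7 members. Its longest coding transcript has 2 exons, as does that of Klf9. The larger exon makes up 85.2% of the transcript, against 38.2% for Klf4 to 77.0% for Klf9 among the other 6 genes. Of 1726 coding genes whose largest exon holds 80% or more of the transcript, 6.78% were past 2-fold on the higher side and 1.39% on the lower side. This class was defined with the values known. Among the other 9782 coding genes the shares were 1.54% and 1.45%. In the range of the members' means, 8 of 436 genes of the first class were at least 2-fold higher (1.83%), Klf13 itself among them. Of the 4105 others, 10 were (0.244%). Klf7, outside the 7 members, also falls in this class, with 82.5% of its transcript in the largest exon and a log2 ratio of 0.07. The part of this in the Klf13 value was not tested.

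Levels were compared between genes as normalized signal per kilobase of the longest coding transcript. In the ID2 library the order of this level was Klf4 (4796), Klf5 (2213), Klf2 (2004), Klf9 (912), Klf10 (817), Klf3 (704) and Klf13 (239). The control library had the order Klf4 (3398), Klf2 (2541), Klf5 (1368), Klf10 (1217), Klf9 (565), Klf3 (526) and Klf13 (118). Klf4 was first and Klf13 last in both libraries, while Klf5 stood above Klf2, and Klf9 above Klf10, in the ID2 library alone. Since no spread was measured, it is unknown which neighbours in this order differ beyond error. With the combined exons of all coding transcripts as length, Klf5 stood below Klf2 in both libraries, at 1426 in the ID2 library and 882 in the control library per kilobase. With that length Klf10 (886) stood just above Klf5 in the control library, and Klf3 (672) stood above Klf10 (595) in the ID2 library, while Klf4, Klf2 and Klf13 were first, second and last in both. The change of place of Klf5 and Klf2 therefore depends on the length taken for Klf5, and the change in their ratio does not.

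Ratios of 2 members within 1 library do not depend on a single scaling factor per library, but they do depend on the step that gave both libraries the same distribution of values. Of 21 such pairs, 7 changed at least 2-fold between the libraries, beside 1.94% of all pairs of genes with means in the members' range. The pairs share genes and are not independent, and each of the 7 set Klf2 or Klf10 against a higher member. Each change follows from the ratios of its 2 genes, given above. The members were chosen with earlier results of these data known, so this count is no independent evidence. Klf2 relative to Klf5, per kilobase of the longest transcript, was 0.906 in the ID2 library and 1.86 in the control library (2.05-fold lower). Klf9 relative to Klf10 was 1.12 in the ID2 library and 0.465 in the control library (2.4-fold higher). Klf10 relative to Klf13 was 3.41 in the ID2 library and 10.3 in the control library, the largest change of the 21 (3.02-fold lower). The ratio of Klf5 to Klf9 hardly moved, at 2.43 in the ID2 library and 2.42 in the control library. Just under the line, Klf3 relative to Klf10 was 1.99-fold higher.

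**Figure D3:**
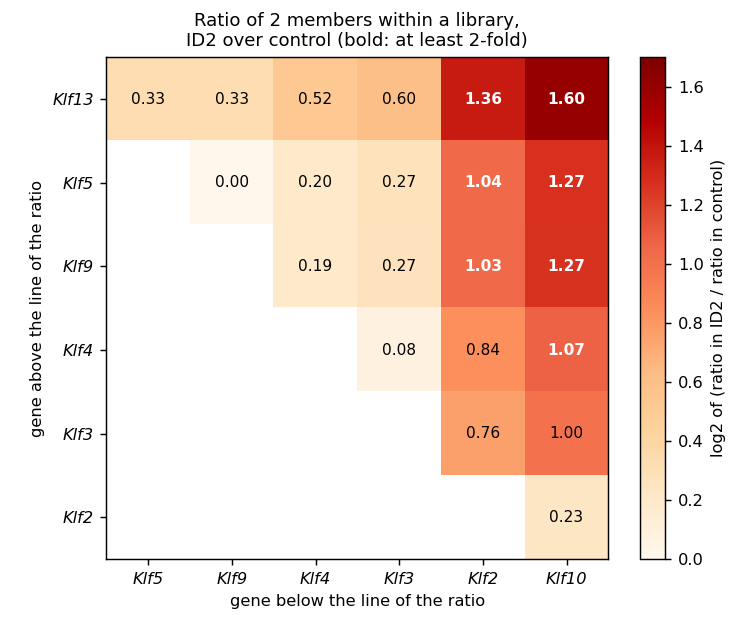
Log2 change, ID2 over control, in the ratio of 2 Klf genes within a library; each square is 1 of 21 pairs, and bold marks at least 2-fold. The bold squares all lie in the columns of Klf2 and Klf10, up to 1.60 for Klf13 over Klf10, and Klf5 over Klf9 is at 0.00.

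Among Klf2, Klf4 and Klf5, the summed signal per kilobase was 9013 in the ID2 library and 7307 in the control library (1.23-fold higher). Klf2 made up 22.2% of this sum in the ID2 library and 34.8% in the control library. Klf4 made up 53.2% in the ID2 library and 46.5% in the control library, and Klf5 24.6% in the ID2 library and 18.7% in the control library. With combined exons as length, the share of Klf2 was 24.5% in the ID2 library and 37.4% in the control library. The trio thus held less Klf2 and more Klf4 and Klf5 transcript with either length.

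The promoters of 5 members were found in the RefSeq table for GRCm38.p6, those of Klf2, Klf3, Klf4, Klf9 and Klf13. They were searched for the E-box CANNTG, the type of site that E proteins bind, because ID proteins act on E proteins. The 250 bases before the start are shown for the 2-fold higher Klf13, the 1.61-fold higher Klf9, the higher Klf4 and the lower Klf2, 5′ to 3′ on the strand of the gene, with capitals at each CANNTG. They lie at chr7:63938916-63939165 (minus strand, Klf13), chr19:23140976-23141225 (plus strand, Klf9), chr4:55532476-55532725 (minus strand, Klf4) and chr8:72318812-72319061 (plus strand, Klf2).
Klf13: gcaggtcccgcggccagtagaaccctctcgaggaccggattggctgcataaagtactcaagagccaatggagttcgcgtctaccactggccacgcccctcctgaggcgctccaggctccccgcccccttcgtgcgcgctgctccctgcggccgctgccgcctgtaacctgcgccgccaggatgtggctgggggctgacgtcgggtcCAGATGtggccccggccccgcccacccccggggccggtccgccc
Klf9: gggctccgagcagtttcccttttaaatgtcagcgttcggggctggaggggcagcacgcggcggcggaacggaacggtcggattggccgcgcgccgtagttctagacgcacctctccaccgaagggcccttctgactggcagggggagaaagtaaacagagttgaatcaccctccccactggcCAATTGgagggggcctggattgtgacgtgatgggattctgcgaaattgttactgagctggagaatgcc
Klf4: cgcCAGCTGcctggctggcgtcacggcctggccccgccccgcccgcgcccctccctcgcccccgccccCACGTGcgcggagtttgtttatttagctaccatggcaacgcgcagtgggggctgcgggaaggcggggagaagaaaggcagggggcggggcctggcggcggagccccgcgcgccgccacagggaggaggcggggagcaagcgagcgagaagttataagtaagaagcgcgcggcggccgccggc
Klf2: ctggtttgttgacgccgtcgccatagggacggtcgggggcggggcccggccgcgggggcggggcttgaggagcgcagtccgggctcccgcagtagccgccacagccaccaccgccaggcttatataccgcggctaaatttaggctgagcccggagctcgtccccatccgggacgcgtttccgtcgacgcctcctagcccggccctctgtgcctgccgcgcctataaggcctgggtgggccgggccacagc

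In this window Klf13 held CAGATG 44 bases before the start, and Klf9 held CAATTG 68 bases before it. Klf4 held CAGCTG and CACGTG, 247 and 182 bases before the start. Klf2 had 0 matches, and Klf3 had 1 in the 250 bases, CAAGTG, 116 bases before the start. Over the whole 300 bases (250 before to 50 after the start), 72.3% of 32851 promoters held CANNTG, a pattern that reads the same on both strands. In that longer window all of these 5 promoters but that of Klf2 held it, and Klf3 held 2 matches. Klf2 was the only lower member searched, as no promoter of Klf5 or Klf10 was found. CAGGTG, a special case of CANNTG, was found on either strand in 20.2% of all promoters and in 0 of these 5. The sequence CACCC, the short box bound by the family, was present on either strand in 57.5% of all promoters. It occurred 5 times in Klf3, once in Klf2, Klf9 and Klf13, and 0 times in Klf4. The GC box GGGCGG, on either strand, was in 35.7% of all promoters and occurred 6 times in Klf3, 4 times in Klf4, 3 times in Klf13, 2 times in Klf2 and 0 times in Klf9. These matches describe letters in 1 window per gene and do not show binding.

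Of the 17 Klf genes in the family list, 15 were in the table and 14 had a mean of at least 50; of these 14, 10 were higher and 4 lower (median log2 ratio 0.19). For comparison, 47.2% of all 12679 genes were higher by any amount and 51.5% lower. The 14 include the 7 members, 5 of them higher and 2 lower, which were chosen with earlier results of these data known. The family count and median are therefore no independent evidence. Klf1 and Klf14 were not in the table. The CtBP-binding genes Klf3, Klf8 and Klf12 were all higher, with Klf8 at 900 in the ID2 library and 689 in the control library and Klf12 at 192 in the ID2 library and 185 in the control library. The log2 ratios of Klf8 (0.39) and Klf12 (0.05) lay within the central 90% of their neighbours in level.

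In the Sin3a-binding branch, Klf11, the closest relative of Klf10, was lower, like Klf10, with a signal of 827 in the ID2 library and 1326 in the control library. Its log2 ratio was −0.68, and 6 of its 500 neighbours in level had a lower one. Klf16 stood with Klf9 and Klf13 on the higher side, at 1509 in the ID2 library and 1230 in the control library (0.29). This grouping by branch was made with the values known. Klf6, a relative of Klf2 and Klf4 with growth-restraining roles, was at 708 in the ID2 library and 1049 in the control library (−0.57, 20 of 500 neighbours lower). Klf7 (0.07) and Klf15 (0.09) were close to 0. Klf17, a gene of early embryos, had a mean of 49.4, just under the floor of 50, with 23.1 in the ID2 library and 75.6 in the control library. Its log2 ratio of −1.67 was the lowest of the family, at a level where the central 90% of ratios ran from −1.18 to 1.36.

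Of the 9 Sp genes, relatives that bind the same GC-rich boxes, 4 were in the table and 3 of them were lower (median −0.30). Over all 12679 genes, 51.5% were lower. Sp1, a ubiquitous activator, had a signal of 7578 in the ID2 library and 10734 in the control library (−0.50), and 14 of its 500 neighbours in level had a lower ratio. Sp4 was at 259 in the ID2 library and 421 in the control library (−0.70), within the range of its neighbours. Sp2 (0.12) and Sp3 (−0.10) were near 0.

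**Figure D4:**
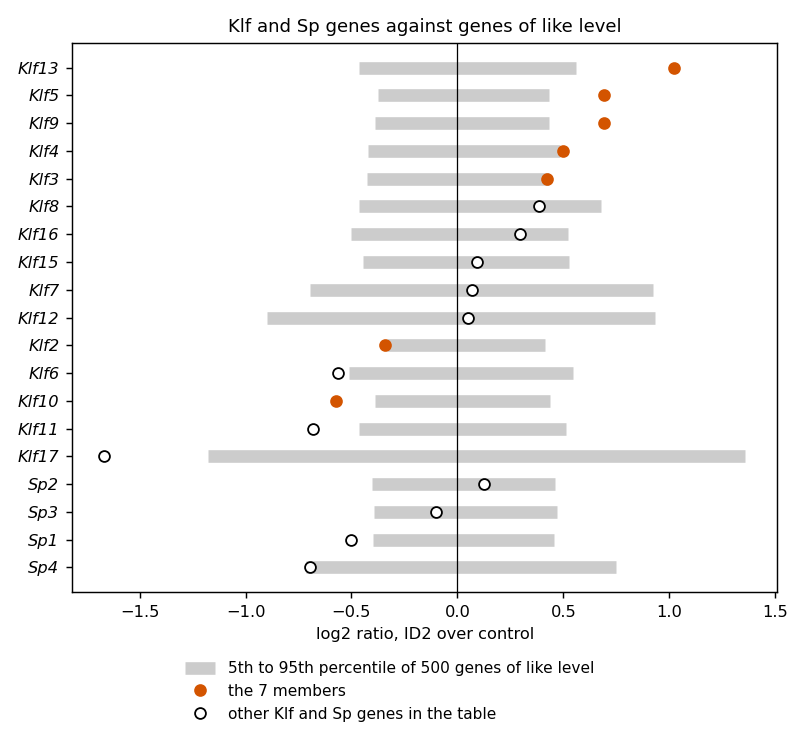
Log2 ratio of ID2 over control for the 15 Klf and 4 Sp genes in the table, sorted within each family; grey bars span the 5th to 95th percentile of the 500 genes nearest in mean. Klf13, Klf5, Klf9 and Klf4 lie to the right of their bars, and Klf2, Klf6, Klf10, Klf11, Klf17 and Sp1 to the left. Klf4 (by 0.015) and Klf2 (by 0.0086) lie only just outside.

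Genes of pathways known to act on the Klf factors were read from lists, which also hold inhibitors and targets of these pathways. For the counts below, the shares over all 12679 genes were 47.2% higher and 51.5% lower. For the LIF and STAT3 pathway, which drives Klf4 and Klf5, 5 of 10 genes were higher and 5 lower (median −0.03). Stat3, the transcription factor of the pathway, had a signal of 4208 in the ID2 library and 5152 in the control library (−0.29). Socs3, a feedback inhibitor and STAT3 target, was at 8957 in the ID2 library and 12735 in the control library (−0.51). Lif was higher (0.67), at 268 in the ID2 library and 168 in the control library, and so was the receptor subunit Il6st (0.35). For the kinase ERK5 and MEF2 factors, which induce Klf2 in endothelium, 5 of 10 listed genes were higher and 5 lower (median 0.02). Map3k2, a kinase at the head of that cascade, was lower (−0.54), as was Mef2d (−0.39), and Ccm2, a restraint on it, was higher (0.51).

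For the TGF-beta pathway, an inducer of Klf10, 4 of 10 genes were higher and 6 lower (median −0.01). Smad7, an inhibitor of the pathway that Klf10 represses in human cells, had a signal of 2380 in the ID2 library and 1315 in the control library (0.86). The receptor Tgfbr2 was higher (0.48) and the ligand Tgfb1 lower (−0.29). Nuclear receptors are inputs of Klf9. Of 7 genes in a list of such receptors and their target genes, 3 were higher and 4 lower (median −0.07). The glucocorticoid-induced genes Tsc22d3 (−0.66) and Per1 (−0.47) were lower. Tsc22d3 had a low signal, 96.5 in the ID2 library and 153 in the control library. Fkbp5 of the same list was near 0 (−0.07), and Rxra was higher (0.46). The part of this pathway in the Klf9 value was not tested. No gene of these 4 input lists was at least 2-fold apart, beside 2.53% higher and 1.86% lower among all 12679 genes.

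Of 11 corepressors and coactivators used by Klf proteins, 8 were higher, 2 lower and 1 equal, all by little, from −0.05 to 0.31 (median 0.13). Over all 12679 genes, 47.2% were higher and 51.5% lower. Hdac1 was at 8685 in the ID2 library and 6998 in the control library (0.31), followed by Crebbp (0.24) and Kat2a (0.20). Of 11 genes that control Klf protein turnover, 5 were higher and 6 lower (median −0.01). Fbxw7, the ubiquitin ligase subunit that targets KLF5, was at 963 in the ID2 library and 644 in the control library (0.58). Vhl, a ubiquitin ligase subunit, was lower (−0.27) and Atxn3, a deubiquitinase, higher (0.23). Transcript levels do not show how much Klf protein was present.

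All 10 self-renewal genes in a list of known targets and partners of Klf2, Klf4 and Klf5 were higher in the ID2 library (median 0.30), beside 47.2% of all genes. The list was chosen when pluripotency genes were already known to be higher in these data, so this count is no independent evidence. Mycn, a growth-promoting transcription factor, was at 3027 in the ID2 library and 1428 in the control library (1.08) and was the only one at least 2-fold higher. Fbxo15 was at 1566 in the ID2 library and 1071 in the control library (0.55), and Esrrb, an orphan nuclear receptor of naive cells, at 20873 in the ID2 library and 14946 in the control library (0.48). Nanog (0.23), Sox2 (0.37) and Pou5f1 (0.09) were higher by less than Klf5 and Klf9.

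**Figure D5:**
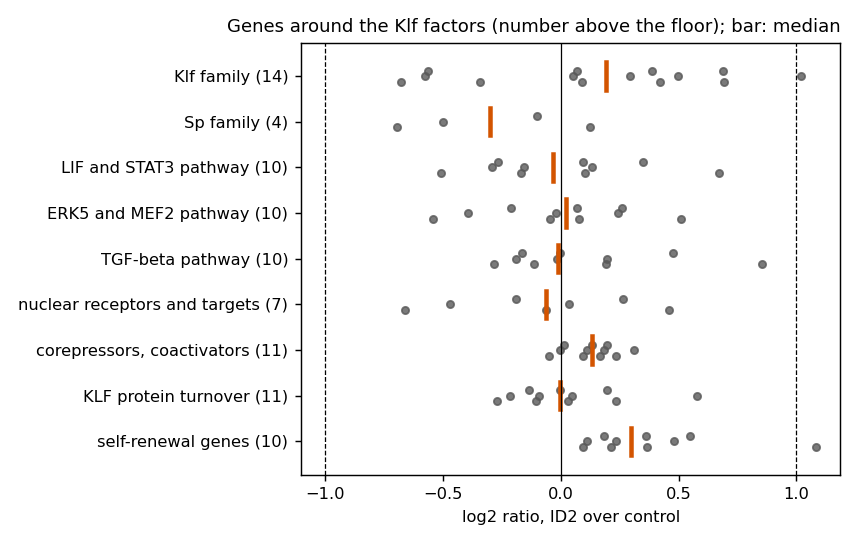
Log2 ratio of ID2 over control for each gene with a mean of at least 50 in 9 lists; points are genes, orange bars are list medians and dashed lines mark 2-fold. The medians run from −0.30 for the Sp genes to 0.30 for the self-renewal genes, and the 4 input lists have medians between −0.07 and 0.02.

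The gene nearest to each member in log2 signal of both libraries, over these 2 libraries and 12703 named genes, was Slc25a4 for Klf2, Rcn1 for Klf3, Mlec for Klf4, Tsc22d1 for Klf5, Dnajc11 for Klf9, Tpd52 for Klf10 and Ccdc71 for Klf13. Distances ran from 0.0158 to 0.0696 on the log2 scale, and a likeness over 2 libraries says only that level and ratio were close.

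Id2 itself had a signal of 26225 in the ID2 library and 324 in the control library (80.6-fold higher), in the direction of the labels. All 9 markers of embryonic stem cells were above the floor. In the ID2 library 8 stood higher and 1 stood lower (median log2 ratio 0.23), from Fgf4 (−0.23) to Zfp42 (0.85). Among all 12679 genes, 47.2% were higher and 51.5% lower. Pou5f1, Sox2, Nanog, Esrrb and Sall4 are also in the self-renewal list above. The markers too were chosen with earlier results of these data known, so their count is no separate evidence. These stem cell markers were mostly higher in the same library as Klf4 and Klf5, and their part in the Klf values was not tested. Of 12 markers of fibroblasts and feeder cells 7 were in the table and 5 above the floor, of which 3 were lower; Col3a1, Fap, Dcn, Lum and Postn were not in the table. The summed signal of these 7 genes was 1698 in the ID2 library and 2418 in the control library, lower in the same library in which Klf13, Klf5 and Klf9 were higher and Klf2 and Klf10 lower. This sum also holds the listed genes under the floor. Of the 5 markers above it, Col1a1 (−1.28) and Thy1 (−0.67) were lowest, and 2 were higher, Loxl1 the more so (0.45). The part of these markers in the Klf values was not tested either, and in such bulk RNA fewer cells of a type and less RNA per cell cannot be told apart. Both libraries had been given the same distribution of values before deposit, with 0 ranks that differed, so the depth behind each value is unknown.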

How the data were processed

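RNA sequencing libraries of ID2-overexpressing and control 46C cells (1 each) were made from Trizol RNA with a TruSeq RNA v2 kit, per the labels' protocols. STAR, DESeq and genome build mm9 were used, per the submitters' processing notes; the sources used here give no versions, annotation or counting tool. The authors deposited a normalized signal per library, their mean, the ratio (fold) of ID2 over control, its log2, and p-values with adjusted p-values. The deposited signal values were whole multiples of 1 step per library (within 0.01), with the same sorted whole numbers in both, so they are not read counts, no count test was run and depth is unknown.

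From these, log2 ratios were computed with a pseudocount of 1, a floor of 50 on the mean and a 2-fold rule, in Python 3.11.15 with numpy 2.4.6 and pandas 2.3.3. Directions were counted on the whole steps. Each gene was set beside the 500 nearest in mean, excluding predicted, repeated and date-like names. Calculations were tested on simulated data. Transcript lengths came from GENCODE M21 (GRCm38, another build than mm9) and promoters from RefSeq. Named genes were the members, all listed Klf and Sp genes, up to 3 per list with the largest ratios, and the nearest gene to each member. Id2, Pou5f1, Sox2, Nanog, Stat3, Fgf4, Sall4 and Fkbp5 were named as well. Members and lists were chosen with earlier results of these data known. Alternatives were other pseudocounts, scaling, floors, fold rules, neighbour numbers and the authors' log2 column.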

Additional observations from a re-analysis of the deposited data

How the results depend on the processing

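Of 122 values recomputed under alternatives, 111 stayed within tolerance (0.1 for a log2 ratio or median, 5 points for a percentile, 1.5 times for a count), 11 moved and 0 reversed. Only a log2 value at least 2-fold in the main setting could count as reversed, which held for Klf13 alone, so 0 reversed was nearly fixed in advance. All 42 alternatives for the 7 members stayed within tolerance, with log2 ratios moving by at most 0.00864, because these genes lie far above the pseudocounts. Scaling could move little, as the median ratio was 0.998, and the authors' log2 column is the same ratio without a pseudocount. This stability says nothing about variation between cultures. Klf13 ran from 1.012 to 1.023 and so stayed just past 2-fold. Without a floor the median log2 ratio was 0.091 for the Klf family and −0.67 for fibroblast markers, and the 2-fold rule was met by 551 genes on the higher and 470 on the lower side. With a floor of 250 the medians were 0.29 for the Klf family, −0.16 for the LIF and STAT3 list and −0.53 for fibroblast markers, and the 2-fold rule was met by 105 and 53 genes on those sides. At 1.5-fold 1014 genes were higher and 835 lower. The floors changed which genes were kept, and the 1.5-fold rule kept the floor of 50 and changed the fold required. No paired analysis was possible because each group has 1 library. Depth is unknown, and 1 library per group limits every comparison.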
